A study of Gallus gallus with 6 samples.

Results

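Ion channels and calcium handling transporters were described in whole chick embryo hearts at stage HH29, after the outflow tract (OFT) had been constricted or sham operated. A heart cell fires when sodium and calcium enter through voltage-gated channels, and it recovers as potassium leaves. Calcium that enters releases more from the sarcoplasmic reticulum, the cell's calcium store. Pumps and exchangers then clear it, and the sodium-potassium pump keeps up the ion gradients on which all of this depends. In the embryonic heart the sarcoplasmic reticulum is still immature, so that entry and extrusion across the cell membrane carry much of the calcium traffic.

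Genes were matched by a rule on their symbols, which was chosen with earlier results of these data known. It took in families of sodium, calcium, potassium, pacemaker and TRP channels, and calcium release channels with their regulators. Calcium pumps, sodium-calcium exchangers and subunits of the sodium-potassium pump were also taken in. The rule matched 52 of 6542 gene symbols, on 57 of 6919 RefSeq transcript rows. Of these rows, 34 reached a mean of 1 RPKM (reads scaled to transcript length and to the mapped reads of the library) over the 6 hearts and were tested, among 4726 tested rows in all. Another 17 were above 0 in at least 1 heart but had a mean under 1 RPKM, and 6 were listed at 0 in every heart. No row matched a pacemaker (HCN), PIEZO, junctophilin or triadin gene, nor CACNA1C, RYR1 or RYR2, and these genes were not analysed here.

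The OFT-banded group held 3 hearts, numbered 6, 11 and 17, from Dekalb white embryos with a suture tied round the outflow tract at HH21, which was taken off at harvest. The sham group held 3 hearts of the same stage and strain, numbered 38, 48 and 42, through whose embryos the suture was only passed and withdrawn. Each library came from 1 whole heart, so that chambers and outflow tract were measured together, and RNA of all 6 had been depleted of globin transcripts. The study asked how the altered blood flow changes the developing heart, and whether the genes of its electrical and calcium machinery differ is the comparison made here.

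Depth, estimated from the steps between low values, lay between 30.1 and 41.1 reads for 1 RPKM on a 1-kilobase transcript in OFT-banded hearts. In sham hearts it lay between 21.1 and 37.4 reads. Values under 1 RPKM on short transcripts thus rest on few reads. Of 12 listed cardiomyocyte markers 11 were found, and their summed level was 68316 to 75763 RPKM in OFT-banded hearts, against 50855 to 64551 in sham hearts. Erythroid markers, 8 of 12 found, summed to 6209 to 12291 RPKM in OFT-banded hearts and 16368 to 41868 in sham hearts. Both sums thus separated the groups, in opposite directions. Most of the erythroid sum was HBE, a globin, at 5303 to 10572 RPKM in OFT-banded hearts and 14107 to 36922 RPKM in sham hearts. HBG1, which also separated the groups, was a target of the globin depletion. The other erythroid markers overlapped. SLC4A1 was at 10.5 to 40.1 RPKM in OFT-banded and 27.5 to 203 RPKM in sham hearts. TFRC was at 9.97 to 47.7 RPKM in OFT-banded and 21.6 to 121 RPKM in sham hearts, and TAL1 at 15.7 to 25.4 and 22.2 to 62.2 RPKM. EPB41 also reached higher values in sham hearts. CA2 ran the other way, at 45.1 to 65.5 RPKM in OFT-banded and 29.5 to 50.2 RPKM in sham hearts. No cardiomyocyte marker separated the groups by itself. Smooth muscle markers (4 of 6 found) overlapped, at 272 to 398 RPKM in OFT-banded and 230 to 278 RPKM in sham hearts, as did neuronal markers (11 of 15 found, 5 of them under 1 RPKM in every heart), at 49.0 to 58.3 RPKM in OFT-banded hearts and 43.8 to 64.3 RPKM in sham hearts. The part of these cell types in the values given here was not tested, and in whole hearts fewer cells of a type cannot be told apart from less RNA per cell.

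No ion channel or transporter passed the adjusted threshold. The comparison of the groups was fitted with limma on log2(RPKM + 1), a scale that understates the change of low transcripts, and p-values were adjusted over all 4726 rows. The count was 0 of 34 at an adjusted p under 0.05, as it was for all rows (0%). The study's own DESeq comparison of these hearts did call genes at a corrected p under 0.05. The lack of calls in the limma fit therefore does not mean that no gene differed between the groups. None of the genes that the study listed as called is a member of this set. At an unadjusted p under 0.05 there were 4 of 34 members (11.8%), beside 8.57% of all tested rows. The 4 were the potassium channel KCNH6, the potassium channel subunit KCNMB4, the cation channel TRPV4 and the sodium-potassium pump subunit ATP1B1. The OFT-banded and sham values did not overlap in 7 of 34 members (20.6%), beside 16.3% of all rows. All 3 OFT-banded hearts lay above all 3 sham hearts in KCNMB4, ATP1B1 and FKBP1A (8.82% of members, beside 5.23% of all rows). All 3 lay below them in KCNH6, TRPV4, CACNA1D and SLC8A3 (11.8%, beside 11.0% of all rows). These shares lie near those of all rows and are given as a description. The unadjusted p of KCNH6 stayed under 0.05 in each alternative fit, whereas that of TRPV4 did not without heart 17 or 42, that of KCNMB4 without heart 17 or without hearts 6 and 38 together, and that of ATP1B1 without heart 6, 11, 48 or 42. Other members came under 0.05 in some alternative fits only, namely CACNA1D, SLC8A3, ATP2A3, FKBP1A, FKBP1B, KCNA2 and KCNMB1. Of these, KCNA2 passed the minimum of 1 RPKM only through the sham group (means of 0.80 RPKM in OFT-banded and 1.40 RPKM in sham hearts). KCNMB1 passed it only through the OFT-banded group.

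**Figure D1:**
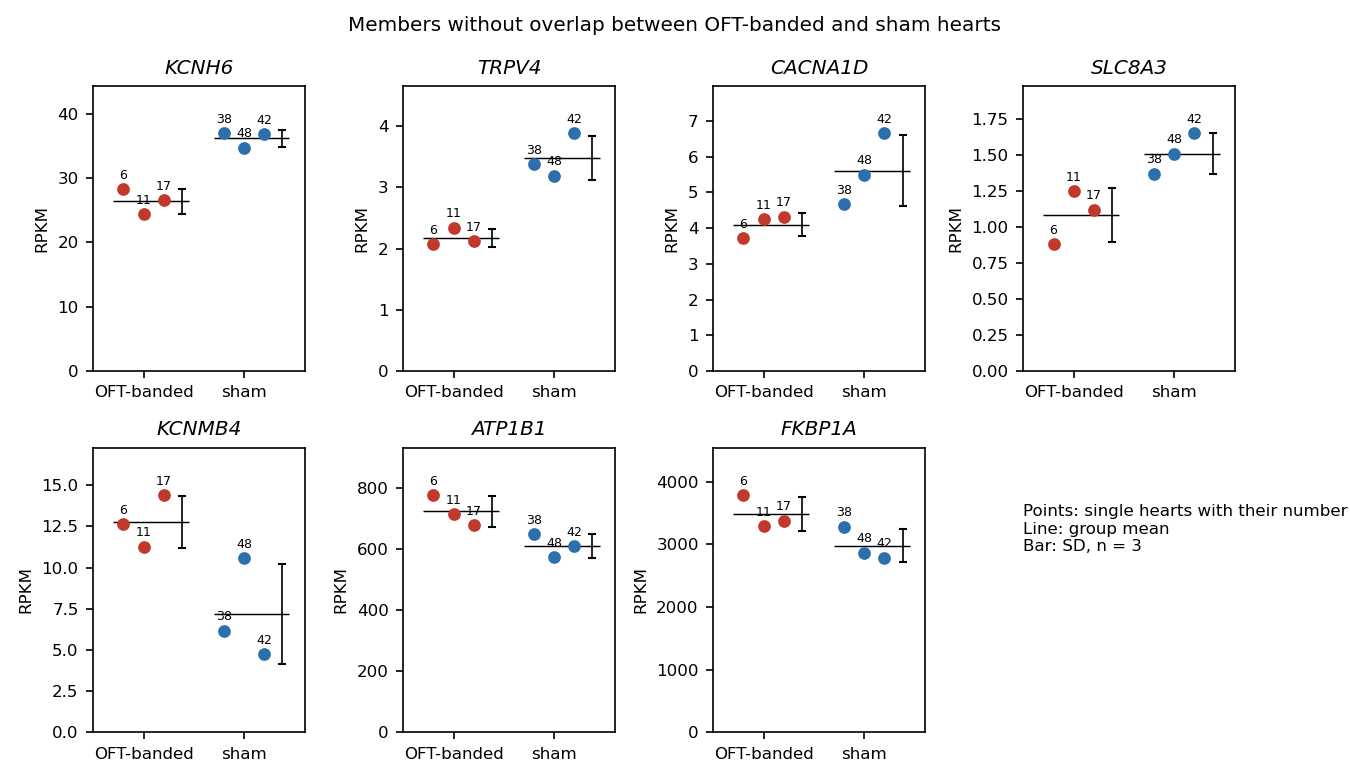
RPKM (vertical axes, starting at 0) of the 7 members whose groups did not overlap, with 1 point per heart and its number, OFT-banded hearts in red on the left and sham hearts in blue on the right; lines are group means and bars the SD (n = 3 each). The 4 members of the upper row were lower in every OFT-banded heart and the 3 of the lower row higher, and the sham values of KCNMB4 are spread from 4.75 to 10.6 RPKM.

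By value, 15 of 34 members were higher and 19 lower in OFT-banded hearts, with a median log2 fold change of -0.05. Over all rows, 36.8% were higher and the median was -0.07. The median level of the members was 6.39 RPKM, beside 28.2 RPKM over all tested rows, and their median coefficient of variation over the 6 hearts was 18.3%, beside 13.6%.

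FKBP1A, FKBP1B and the sodium-potassium pump subunit ATP1B1 were among the members with the highest means, and ATP1B3, SLC8A1, CASQ2 and CACNA2D1 came after them, while most pore-forming channels lay below 10 RPKM.

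**Figure D2:**
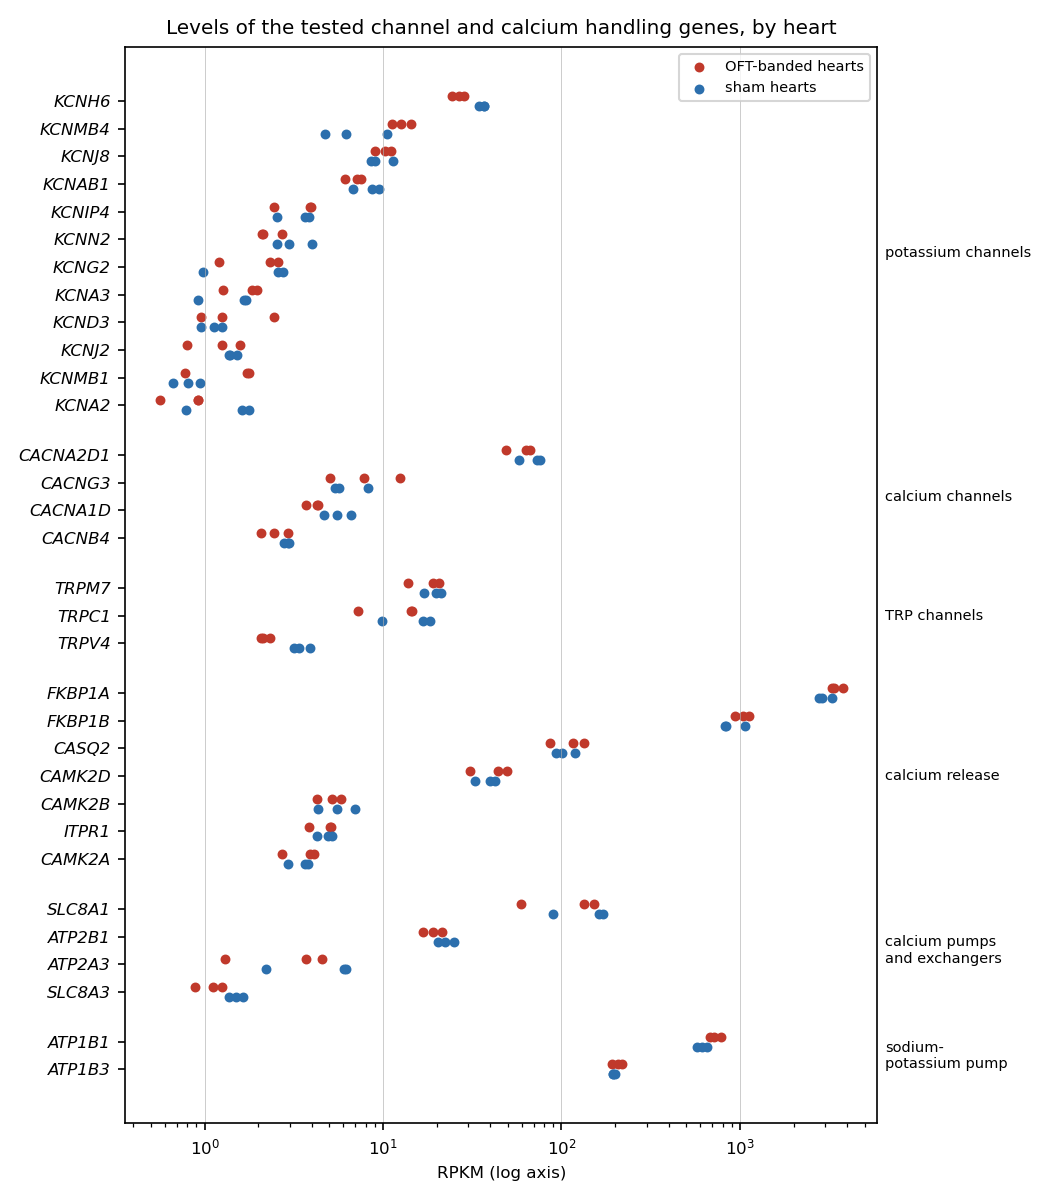
RPKM of 32 tested members on a log axis, with a point for each heart, OFT-banded in red above sham in blue; the members are grouped by role. FKBP1A stands highest, with 2787 to 3789 RPKM over the 6 hearts, and the spread between members is far wider than that between the groups.

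Voltage-gated calcium channels let calcium into the cell when it depolarises. Of 11 rows, 4 were tested, 1 higher and 3 lower by value, with a median log2 fold change of -0.19. CACNA1D encodes the pore of an L-type channel known for its part in sinoatrial pacemaking. It was at 3.72, 4.25 and 4.32 RPKM in OFT-banded hearts, against 4.67, 5.50 and 6.65 RPKM in sham hearts. Every OFT-banded heart was below every sham heart, and the means were 4.10 ± 0.328 RPKM for OFT-banded and 5.61 ± 0.994 RPKM for sham (SD, n = 3 each). The log2 fold change was -0.37 (standard error, SE, 0.17, 95% interval -0.76 to 0.03, limma adjusted p = 0.543).

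CACNA2D1, the auxiliary subunit that brings these channels to the membrane, was the highest of the class, at 48.8, 63.1 and 67.0 RPKM in OFT-banded hearts and 58.0, 75.8 and 73.3 RPKM in sham hearts. The groups overlapped, and within each the lowest heart, 6 or 38, stood well below the rest. They did not overlap with the gene-span trend removed, without sham heart 38, or without hearts 6 and 38 together. The log2 fold change was -0.21 in the main fit (SE 0.15, limma adjusted p = 0.617) and -0.087 with the gene-span trend removed. It was -0.076 without heart 6, -0.33 without sham heart 38, -0.20 without both and -0.14 without sham heart 48. CACNG3, a gamma subunit family member best known from neurons as an auxiliary protein of glutamate receptors, was at 12.4, 7.83 and 5.03 RPKM in OFT-banded hearts and 5.36, 8.22 and 5.69 RPKM in sham hearts. Its higher OFT-banded mean came from heart 6: the log2 fold change of 0.29 (SE 0.30, limma adjusted p = 0.70) became -0.0046 without it.

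Sodium channels were matched by 2 rows only, which were low and do not give the level of these channels as a class. SCN9A, best known from sensory neurons, was at 0.52, 0.51 and 0.59 RPKM in OFT-banded hearts and 0.40, 0.50 and 0.57 RPKM in sham hearts, and SCN2A, a channel of central neurons, did not exceed 0.07 RPKM. Both were under the minimum for testing. Of the calcium channel rows, 7 were also under it. CACNA1S, the pore of the skeletal muscle L-type channel, was listed at 0 on both of its transcripts.

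Potassium channels end the action potential and set the resting potential. Of their 19 rows, 12 were tested, 6 higher and 6 lower by value, with a median log2 fold change of 0.01 and a range of -0.44 to 0.81, and the split was 5 higher and 7 lower under TPM and 7 higher and 5 lower under median-ratio scaling. KCNH6 encodes a pore subunit of the erg family, which in the heart is known for the rapid delayed rectifier current through its relative KCNH2. It was at 28.3, 24.4 and 26.6 RPKM in OFT-banded hearts and 36.9, 34.7 and 36.8 RPKM in sham hearts. The gap between the groups was wider than the spread within either, with means of 26.4 ± 1.95 RPKM for OFT-banded and 36.1 ± 1.27 RPKM for sham (SD, n = 3 each). The log2 fold change was -0.44 (SE 0.10, 95% interval -0.66 to -0.22), with an unadjusted p of 0.00228 and an adjusted p of 0.543 from limma. KCNH6 was the potassium channel with the highest level and the member with the smallest p.

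KCNMB4 is an accessory beta subunit of the large-conductance BK channel, which opens with calcium and depolarisation and whose beta subunits tune its calcium sensitivity. KCNMB4 was at 12.6, 11.3 and 14.4 RPKM in OFT-banded hearts and 6.18, 10.6 and 4.75 RPKM in sham hearts. It had the largest log2 fold change of the tested members, 0.81 (SE 0.26, 95% interval 0.20 to 1.42), a ratio of means of 1.78, with an unadjusted p of 0.0162 and an adjusted p of 0.543 from limma. Sham heart 48, at 10.6 RPKM, came close to OFT-banded heart 11, at 11.3 RPKM, and the sham mean of 7.17 ± 3.03 RPKM (SD, n = 3) carried most of the spread.

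KCNMB1, another BK beta subunit and the one typical of smooth muscle, was at 1.74, 1.77 and 0.78 RPKM in OFT-banded hearts and 0.67, 0.94 and 0.81 RPKM in sham hearts. Hearts 6 and 11 were above every sham heart and heart 17 was not, and the log2 fold change was 0.40 (SE 0.24, limma adjusted p = 0.584). KCNMB1 passed the minimum of 1 RPKM only through the OFT-banded group, with a mean of 1.43 RPKM against 0.807 RPKM in the sham group. Its place among the tested members thus depended on the group where it was higher. KCNMA1, the pore of the BK channel, was at 0.25, 0.69 and 1.12 RPKM in OFT-banded hearts and 0.47, 0.89 and 0.88 RPKM in sham hearts, under the minimum for testing. Per length of transcript, KCNMB4 averaged 9.97 RPKM over the 6 hearts and the pore subunit 0.717 RPKM.

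KCNJ8, a pore of the ATP-sensitive potassium channel of vessels and heart, was the third highest of the class, at 11.1, 10.2 and 9.07 RPKM in OFT-banded hearts and 9.07, 8.56 and 11.4 RPKM in sham hearts. The groups overlapped. KCNAB1, a cytoplasmic beta subunit of Kv1 channels, averaged 6.92 ± 0.737 RPKM in the OFT-banded group and 8.35 ± 1.39 RPKM in the sham group (SD, n = 3). KCNJ2, the main pore of the inward rectifier that holds the resting potential of ventricular cells, was low, at 0.80, 1.59 and 1.26 RPKM in OFT-banded hearts and 1.39, 1.37 and 1.52 RPKM in sham hearts. KCND3, a pore of the transient outward current, was at 0.96, 1.25 and 2.44 RPKM in OFT-banded hearts and 1.26, 1.13 and 0.96 RPKM in sham hearts. In both genes the groups overlapped. KCNJ3, a pore of the acetylcholine-gated channel of atria and nodes, was under the minimum, at 0.24, 1.05 and 0.80 RPKM in OFT-banded hearts and 0.32, 0.91 and 1.24 RPKM in sham hearts, with hearts 6 and 38 lowest.

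TRP channels are cation channels that open to lipids, stretch, heat or store depletion. TRPV4, a calcium-permeable channel that responds to cell swelling and to flow over endothelium, was at 2.07, 2.34 and 2.12 RPKM in OFT-banded hearts and 3.38, 3.19 and 3.88 RPKM in sham hearts. Each OFT-banded heart lay below each sham heart, and the means of 2.18 ± 0.144 RPKM for OFT-banded and 3.48 ± 0.356 RPKM for sham (SD, n = 3 each) gave a ratio of 0.625. The log2 fold change was -0.50 (SE 0.16, 95% interval -0.87 to -0.12), with an unadjusted p of 0.0176 and an adjusted p of 0.543 from limma. Endothelial and endocardial markers, 4 of 9 found, summed to 125 to 163 RPKM in OFT-banded hearts and 142 to 186 RPKM in sham hearts, which overlap. Their part in the TRPV4 values was not tested.

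TRPC1, a subunit of receptor- and store-operated channels, was at 7.28, 14.5 and 14.4 RPKM in OFT-banded hearts and 9.82, 16.7 and 18.3 RPKM in sham hearts. TRPM7, a magnesium- and calcium-permeable channel fused to a kinase, was at 13.7, 19.1 and 20.5 RPKM in OFT-banded hearts and 17.0, 19.7 and 21.0 RPKM in sham hearts. In both, heart 6 and heart 38 were the lowest of the 6 and the groups overlapped. The log2 fold changes were -0.30 for TRPC1 and -0.12 for TRPM7 (SEs 0.31 and 0.17), and without heart 6 they became 0.00018 and 0.04. Without sham heart 38 they were -0.56 and -0.20, and without hearts 6 and 38 together -0.26 and -0.04, so that both values depended on which of these hearts was included.

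**Figure D3:**
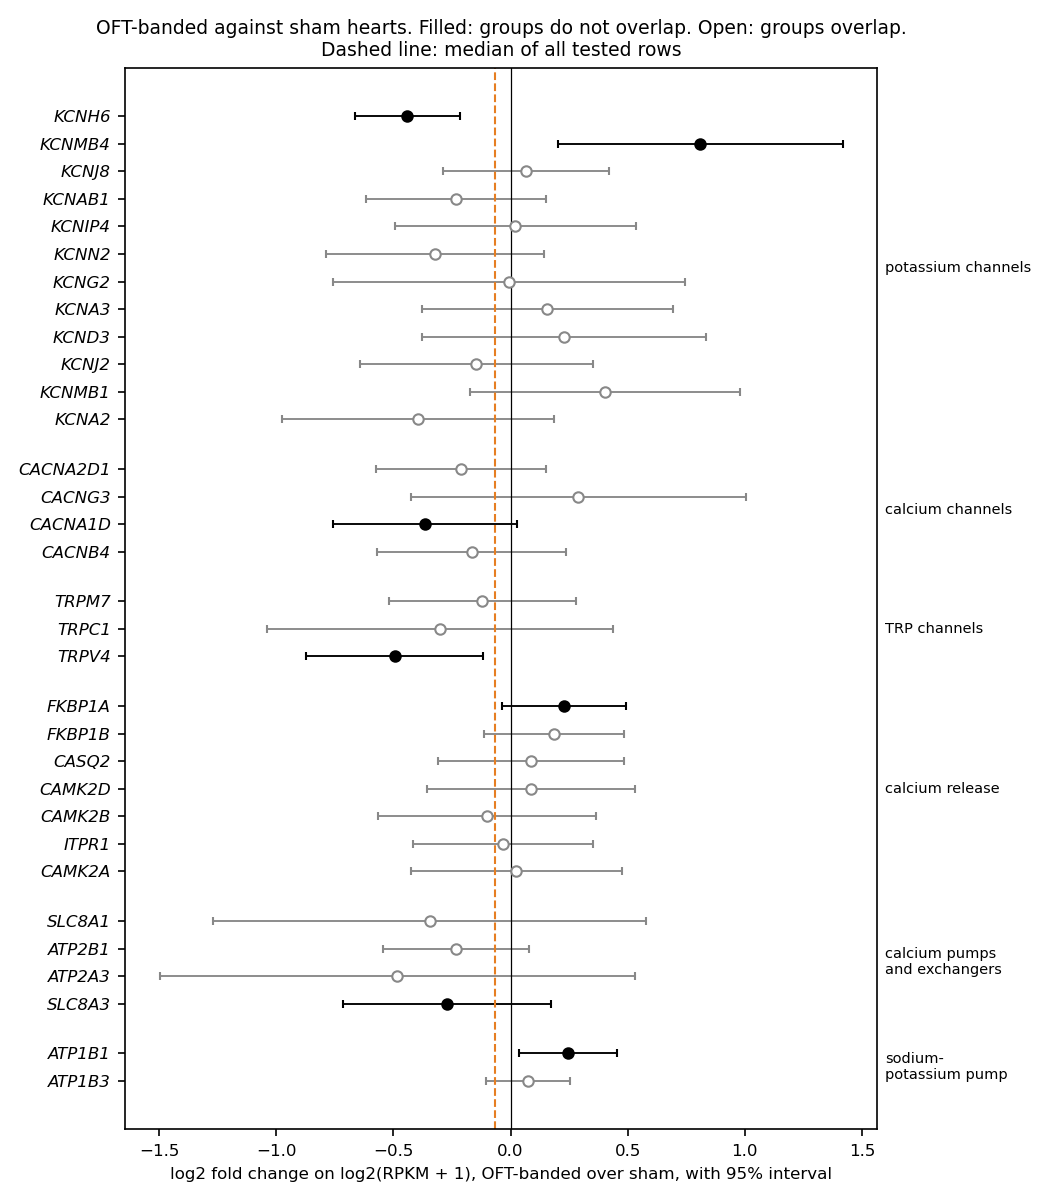
Log2 fold change, OFT-banded over sham, of 32 tested members, each with its 95% interval from limma, grouped by role; filled points mark members whose groups did not overlap and the dashed line the median of all tested rows. Pumps, exchangers and TRP channels lie to the left of 0 and the subunits of the sodium-potassium pump to the right, and the intervals of 4 members, KCNH6, KCNMB4, TRPV4 and ATP1B1, exclude 0.

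Calcium release from the store and its regulation were represented by 8 rows, of which 7 were tested, 5 higher and 2 lower by value (median log2 fold change 0.09, range -0.10 to 0.23), while all 7 were higher without heart 6 (median 0.17) and 3 were higher and 4 lower without sham heart 38 (median -0.02). FKBP1A and FKBP1B are immunophilins that bind ryanodine receptors, and FKBP1A also binds type I receptors of the TGF-beta family. FKBP1A was at 3789, 3289 and 3379 RPKM in OFT-banded hearts and 3281, 2865 and 2787 RPKM in sham hearts. OFT-banded heart 11 and sham heart 38 were nearly level, and the separation of the groups was lost under median-ratio scaling and after removal of the gene-span trend. The means were 3486 ± 267 RPKM for OFT-banded and 2978 ± 266 RPKM for sham (SD, n = 3 each), with a log2 fold change of 0.23 (SE 0.11, 95% interval -0.03 to 0.49, limma adjusted p = 0.543).

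FKBP1B averaged 1032 ± 88.4 RPKM in OFT-banded hearts and 912 ± 139 RPKM in sham hearts (SD, n = 3 each), and sham heart 38, at 1072 RPKM, was above OFT-banded hearts 11 and 17. Its log2 fold change was 0.18 (SE 0.13, limma adjusted p = 0.608). CASQ2, the calcium-binding protein that buffers the store in cardiac muscle, was at 86.5, 116 and 134 RPKM in OFT-banded hearts and 101, 119 and 93.5 RPKM in sham hearts. For CASQ2 the log2 fold change was 0.09 (SE 0.17, limma adjusted p = 0.837). CAMK2D, the main cardiac isoform of a calmodulin-dependent kinase that phosphorylates several of these channels, was at 30.7, 49.5 and 44.0 RPKM in OFT-banded hearts and 32.7, 42.6 and 39.9 RPKM in sham hearts. ITPR1, a release channel opened by inositol trisphosphate, was at 3.86, 5.13 and 5.06 RPKM in OFT-banded hearts and 4.29, 4.91 and 5.18 RPKM in sham hearts. RYR3, the one ryanodine receptor with a matched row, was at 0.31 to 0.58 RPKM in OFT-banded hearts and 0.40 to 0.47 RPKM in sham hearts.

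Calcium pumps and sodium-calcium exchangers were lower by value in all 4 tested rows of 7, beside 2985 of all 4726 tested rows. Their median log2 fold change was -0.31, with a range of -0.48 to -0.23. The 4 stayed lower under TPM and median-ratio scaling. With the gene-span trend removed they were also lower, with a median of -0.19. Without heart 6 the split was 1 higher and 3 lower, with a median of -0.12, and without sham heart 38 the 4 were lower, with a median of -0.48. In the main fit none of the 4 had an unadjusted p under 0.05. In alternative limma fits, unadjusted p for SLC8A3 was 0.0439 with no filter and 0.0406 with no trend. For ATP2A3 it was 0.0247 without hearts 6 and 38. SLC8A1 encodes NCX1, the main sodium-calcium exchanger of heart muscle. It was at 59.1, 134 and 152 RPKM in OFT-banded hearts and 89.2, 163 and 170.3 RPKM in sham hearts. Hearts 6 and 38 were far below the others of their group, the means were 115 ± 49.2 RPKM for OFT-banded and 141 ± 44.9 RPKM for sham (SD, n = 3 each), and the log2 fold change was -0.34 (SE 0.39, 95% interval -1.27 to 0.58, limma adjusted p = 0.722). Without heart 6 it was 0.07, without sham heart 38 -0.64, and without both -0.22.

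SLC8A3, the NCX3 exchanger known from skeletal muscle and brain, was far lower than SLC8A1, at 0.88, 1.25 and 1.12 RPKM in OFT-banded hearts and 1.37, 1.51 and 1.65 RPKM in sham hearts. The groups did not overlap, and the log2 fold change was -0.27 (SE 0.19, 95% interval -0.71 to 0.17, limma adjusted p = 0.610). ATP2B1, a calcium pump of the cell membrane, was at 16.7, 21.5 and 19.0 RPKM in OFT-banded hearts and 22.4, 20.3 and 24.9 RPKM in sham hearts. OFT-banded heart 11 lay above sham heart 48 alone, and the log2 fold change was -0.23 (SE 0.13, limma adjusted p = 0.561).

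ATP2A3, a sarco-endoplasmic reticulum calcium pump mostly of non-muscle and endothelial cells, was at 1.30, 3.69 and 4.53 RPKM in OFT-banded hearts and 2.22, 6.05 and 6.17 RPKM in sham hearts, with hearts 6 and 38 again lowest. For ATP2A3 the log2 fold change was -0.48 (SE 0.43, limma adjusted p = 0.661). It was -0.10 without heart 6, -0.86 without sham heart 38 and -0.48 without both, and it also moved by over 1.5 times without heart 17, 48 or 42 (-0.73, -0.30 and -0.29).

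Of the sodium-potassium pump, beta subunits are described here. ATP1B1, a beta subunit needed to bring the pump to the membrane, was at 778, 715 and 679.7 RPKM in OFT-banded hearts and 649.7, 573 and 609 RPKM in sham hearts. No OFT-banded heart fell within the sham range, and the means were 724 ± 49.8 RPKM for OFT-banded and 611 ± 38.2 RPKM for sham (SD, n = 3 each), a ratio of 1.19. The log2 fold change was 0.24 (SE 0.09, 95% interval 0.04 to 0.45), with an unadjusted p of 0.0270 and an adjusted p of 0.543 from limma.

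ATP1B3, another beta subunit, was at 193, 219 and 208 RPKM in OFT-banded hearts and 199.9, 195 and 194 RPKM in sham hearts, with a log2 fold change of 0.08 (SE 0.08, limma adjusted p = 0.692). The groups overlapped in these values. They did not overlap under median-ratio scaling, with the gene-span trend removed or without heart 6, at log2 fold changes of 0.14, 0.16 and 0.12. Ratios between genes were also taken within each heart, which no scaling between hearts can move. The ratio of SLC8A1 to SLC8A3 averaged 103 ± 34.4 in the OFT-banded group and 92.1 ± 23.6 in the sham group (SD, n = 3, exact permutation p = 0.6), and that of CASQ2 to RYR3 averaged 256 ± 49.6 in the OFT-banded group and 240.0 ± 36.6 in the sham group (exact permutation p = 0.5). Both tests were two-sided, both p-values were 0.6 after adjustment over the 2 ratios, and the smallest p that 3 against 3 hearts allow in an exact permutation test is 0.1. RYR3, with a mean of 0.443 RPKM over the 6 hearts, was under the minimum for testing by itself.

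The other 15 tested members had log2 fold changes between -0.39 and 0.23 and unadjusted p-values of 0.147 or more in limma.

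Symbols with several transcripts are set apart, since 7 of their 8 rows (87.5%) had a mean under 1 RPKM, beside 16 of 49 rows (32.7%) of members listed once. Over the whole table the shares were 88.1% of 629 rows of symbols with several transcripts and 26.1% of 6290 rows listed once. ATP2A2 encodes SERCA2, the calcium pump of the cardiac sarcoplasmic reticulum. Of its 3 rows, 2 were listed at 0, and the third was at 0.52, 0.63 and 0.62 RPKM in OFT-banded hearts and 0.53, 0.58 and 0.60 RPKM in sham hearts. How reads shared between transcripts of a gene were assigned is not given in the sources used here, and these values are not read as the level of the gene. CACNB4, a beta subunit of calcium channels, had 1 tested row of 3, at 2.94, 2.45 and 2.07 RPKM in OFT-banded hearts and 2.78, 2.98 and 2.92 RPKM in sham hearts. The log2 fold change of that row was -0.17 (SE 0.17, limma adjusted p = 0.698).

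Single hearts moved many members together. OFT-banded heart 6 had the lowest value of the 6 hearts in 21 of 34 members (61.8%), beside 42.2% of all tested rows. Its median log2 deviation from the mean of the 6 hearts was -0.25 over the members and -0.10 over all rows. Sham heart 42 had the highest value in 13 members (38.2%), beside 36.0% of all rows. Hearts 6 and 38 were the lowest pair in 13 members (38.2%), beside 25.1% of all rows. Among them were ATP2A3, CACNA2D1, the 3 kinase genes CAMK2A, CAMK2B and CAMK2D, ITPR1, KCNA2, KCNG2, SLC8A1, TRPC1 and TRPM7.

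**Figure D4:**
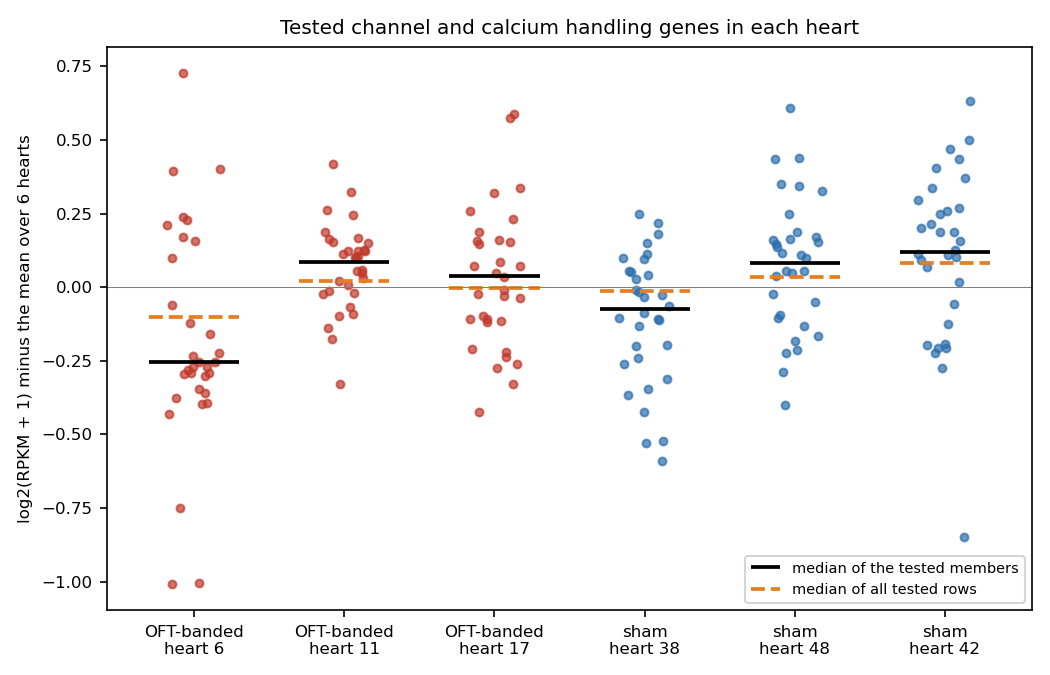
Log2 deviation of 32 tested members from their mean over the 6 hearts, by heart, with OFT-banded hearts 6, 11 and 17 left of sham hearts 38, 48 and 42; lines are medians over all 34 tested members and, dashed, over all tested rows. Heart 6 lies lowest, with a median of -0.25 over the members, and sham heart 42 highest, with a median of 0.12.

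Many of these genes are long. The median gene span, introns included and taken from a later assembly than the one used for the reads, was 34343 bases over the members and 14758 bases over all rows. A span of at least 50000 bases was found in 14 of 34 members (41.2%), beside 16.5% of all rows with a span. Across genes, which are not independent replicates, Spearman's rho between span and the deviation in heart 6 was -0.29 over the 34 members and -0.40 over 4689 rows. In 2 other hearts the sign differed between members and all rows: rho was 0.06 and -0.25 in sham heart 38, and -0.12 and 0.10 in OFT-banded heart 11. Between span and log2 fold change, rho was -0.23 over the members and -0.24 over all rows. The part of gene span in the values of single members was not tested. Without hearts 6 and 38, an alternative added after seeing the data, 7 members had an unadjusted p under 0.05 in limma, beside 15.0% of all rows, and 22 did not overlap between 2 and 2 hearts, beside 52.0% of all rows.

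Genes that work with these channels but lie outside the rule were taken from a list of 62, of which 31 were found and tested. By value 10 were higher and 21 lower, with a median log2 fold change of -0.09. At an adjusted p under 0.05 there were 0, and at an unadjusted p under 0.05 there were 6 (19.4%), beside 8.57% of all rows. Every OFT-banded heart was higher in 5 (16.1%, beside 5.23% of all rows) and lower in 2 (6.45%, beside 11.0%). GEM, a small GTPase that holds down L-type calcium channels, was at 38.8, 45.5 and 39.5 RPKM in OFT-banded hearts and 28.7, 27.2 and 36.9 RPKM in sham hearts. CALM, calmodulin, the calcium sensor of CAMK2 and of many channels, was at 1318, 1374 and 1323 RPKM in OFT-banded hearts and 1187, 1153 and 1129 RPKM in sham hearts. Neither overlapped between the groups, and the log2 fold changes were 0.41 for GEM and 0.21 for CALM (SEs 0.14 and 0.08). VDAC2, an anion channel of the outer mitochondrial membrane and the highest of the list, was lower in every OFT-banded heart. It was at 1516, 1579.6 and 1566 RPKM in OFT-banded hearts and 1614, 1585 and 1583 RPKM in sham hearts. For VDAC2 the log2 fold change was -0.04 (SE 0.08). VDAC1, another anion channel of that membrane, had the largest difference of the partner genes whose groups did not overlap and was chosen after its values were seen. It was at 128, 93.6 and 120.3 RPKM in OFT-banded hearts and 87.3, 45.4 and 88.8 RPKM in sham hearts, with a log2 fold change of 0.67 (SE 0.26, limma adjusted p = 0.543). The groups were also apart in LETM1 and SRI, with log2 fold changes of 0.23 and 0.08. PLN, phospholamban, the inhibitor of SERCA2, was likewise chosen after its values were seen. It was at 613, 617 and 741 RPKM in OFT-banded hearts and 473, 619 and 452 RPKM in sham hearts, with sham heart 48 inside the OFT-banded range, and the log2 fold change of PLN was 0.36 (unadjusted p = 0.0371 from limma). VDAC1, LETM1, SRI and PLN were all higher by value, whereas most of the list was lower. GJA5, also chosen after its values were seen, was lower by value. It was at 199.2, 212.1 and 169.6 RPKM in OFT-banded hearts and 211.6, 230.8 and 256.0 RPKM in sham hearts. The groups overlapped, and the log2 fold change of GJA5 was -0.27 (SE 0.11, unadjusted p = 0.0489 from limma).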

How the data were processed

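RNA of 3 OFT-banded and 3 sham hearts was sequenced, with 1 library per heart. The authors depleted globin transcripts, made strand-specific libraries, sequenced paired ends of 75 bases, and used TopHat (galGal4 genome), HTSeq for counting and DESeq for the comparison, in versions not given in the sources used here. The deposited values are RPKM per RefSeq transcript, computed by the authors before deposit, so no count test was run. Columns name the group and a heart number that the labels lack, and hearts were grouped by those names. All hearts were prepared together and no batch is given. The study reports that the sequenced RNA had lost integrity through repeated freezing and thawing and globin depletion. It gives a range of integrity and no value for each heart, and the part of RNA quality in these values was not tested. P-values from limma set the difference between the groups against the spread between these hearts, which the fit estimates partly from the other rows.

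Rows with a mean of at least 1 RPKM were compared on log2(RPKM + 1) in R 4.3.3 with the package limma 3.58.1, using an intensity trend and Benjamini-Hochberg adjustment at 0.05 over all rows. Ratios, counts and exact permutation tests were made with scipy 1.17.1, pandas 2.3.3 and numpy 2.4.6 under Python 3.11.15, and the gene-span trend was removed with statsmodels 0.14.6. The fit was tested on simulated data with independent noise in each heart and with changes larger than that of any member. That test does not show how often changes of the members' size would be found. Depth came from the steps between low values, at least 97.8% of which were whole reads within 0.1 read.

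Members and gene lists were chosen with earlier results of these data known. Fits are given for the 3 tested members of each role with the smallest p, the 2 with the highest mean, those without overlap, and TRPV4. Of the partner genes, those with the smallest p and the highest means are named, with VDAC1, LETM1, SRI, PLN and GJA5 added after their values were seen. Gene spans were from GRCg7b and matched 99.2% of tested rows. Of 8 planned ratios 2 are given, and most others had a row that was unmatched, at 0 or under several transcripts. A few genes are not reported here. Alternatives were no filter, a mean of at least 5 RPKM, a pseudocount of 0.1, rescaling to a sum of 1000000 (TPM), median-ratio scaling, no trend, robust moderation and each heart left out. Hearts 6 and 38 left out together and removal of the gene-span trend were added after seeing the data.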

Additional observations from a re-analysis of the deposited data

How the results depend on the processing

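No paired analysis was possible because OFT-banded and sham hearts came from different embryos, so that no heart of one group is tied to a heart of the other. No member passed an adjusted p of 0.05 under any of the 15 alternatives, with a lowest adjusted p of 0.253 from limma among the 19 members given with a fit. Of 279 log2 fold changes of these members, 273 kept their direction and 6, in 5 members, turned. Leaving out each heart in turn gave ranges of -0.0046 to 0.57 for CACNG3, -0.051 to 0.26 for CASQ2, -0.64 to 0.074 for SLC8A1, -0.56 to 0.00018 for TRPC1 and -0.23 to 0.045 for TRPM7, and, with no turn, -0.86 to -0.10 for ATP2A3, -0.33 to -0.076 for CACNA2D1, -0.32 to -0.15 for ATP2B1, -0.26 to -0.078 for CACNB4, 0.12 to 0.31 for FKBP1B, 0.29 to 0.61 for KCNMB1 and 0.032 to 0.12 for ATP1B3, and CACNG3 was at -0.11 without hearts 6 and 38. The number of members with an unadjusted p under 0.05 ranged between 2 without sham heart 42 (4.15% of all rows) and 8 without sham heart 38 (13.8%), and was 7 without hearts 6 and 38 (15.0%). The number without overlap was 4 at a mean of at least 5 RPKM (17.3% of all rows) and 7 to 15 with each heart left out, the highest without sham heart 38 (41.3% of all rows, and 20.1% to 26.1% without another heart), and 22 without hearts 6 and 38 (52.0%). With single hearts left out, the highest and lowest counts came where the shares over all rows were highest and lowest. The median log2 fold change of the members was 0.056 at a mean of at least 5 RPKM, 0.00245 under median-ratio scaling, 0.064 with the gene-span trend removed, and -0.13 to 0.017 with each heart left out. Over all rows the medians in these settings were -0.061, -0.0037, -0.0079, and -0.091 to -0.026. The within-heart log2 ratio of SLC8A1 to SLC8A3 was -0.074 with a pseudocount of 1 and ranged over -0.091 to 0.42, and that of CASQ2 to RYR3 over -0.042 to 0.26, with each heart left out. Apart from the fewer rows or hearts these settings hold, the cause was not tested. Values under 1 RPKM on short transcripts rest on few reads, and 3 hearts a group limit all of these comparisons.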
